A study of Mus musculus with 2 samples.

Results

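Skeletal muscle fibres of mouse skin were followed here as 628 of 70658 cells in 2 skin sections imaged by Xenium, a method that decodes single RNA molecules in place. The sections were 1 Utx-cKO section, from mice in which Kdm6a (Utx), a chromatin regulator, was deleted in keratin-14 expressing tissues with Krt14-Cre, and 1 WT control section. Both came from whole skin of B6/129 females, fixed in paraffin, cut at 5 µm and probed for 480 genes. The labels give neither the age nor the number of animals, and with 1 section per group no test between genotypes was possible. By the labels the Cre promoter is that of an epithelial keratin, so muscle lies outside the tissue in which the deletion was made. The members were cells with at least 20 transcripts, at least 3 transcripts of Tnnt1, Arpp21 and Slc16a3 together, and fewer than 3 of the keratinocyte genes Krt5, Krt15 and Col17a1. Levels of these 6 genes therefore describe the choice and are no finding.

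Mouse skin, unlike most human skin, rests on a thin sheet of striated muscle, the panniculus carnosus, which twitches the skin. Skeletal muscle fibres are long multinucleate cells that differ in how they make energy. Fast glycolytic fibres turn glucose into lactate, whereas slow oxidative fibres burn fatty acids and carry slow isoforms of the contractile proteins. Tnnt1 encodes slow skeletal troponin T, the thin-filament protein of slow fibres. Slc16a3 encodes the lactate exporter MCT4, abundant in glycolytic fibres, and Arpp21 encodes a phosphoprotein that is also expressed in brain.

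The upstream sequences of both kinds of marker are shown because muscle cells in 1 area of the Utx-cKO section were high in Tnnt1. There they were low in Slc16a3 and in Ldha, which makes lactate. Tnnt1 and Slc16a3 share a limit in the rule, so their opposition describes the chosen cells and is no finding. The sequences are the 250 bases before the start of each gene from RefSeq, build GRCm38.p6, read 5′ to 3′ on the gene's strand. Capitals mark the E-box CANNTG, the motif of myogenic factors, in Tnnt1 (chr7:4515976-4516225, minus strand). In Slc16a3 (chr11:120948817-120949066, plus strand) and Ldha (chr7:46845554-46845803, plus strand, the first of 2 listed starts) they mark ACGTG, the core of the hypoxia response element, on either strand.
Tnnt1: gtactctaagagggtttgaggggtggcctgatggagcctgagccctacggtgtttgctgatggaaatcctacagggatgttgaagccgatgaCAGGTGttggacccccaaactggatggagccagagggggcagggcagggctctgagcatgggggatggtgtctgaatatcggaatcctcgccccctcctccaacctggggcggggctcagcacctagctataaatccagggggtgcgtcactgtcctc
Slc16a3: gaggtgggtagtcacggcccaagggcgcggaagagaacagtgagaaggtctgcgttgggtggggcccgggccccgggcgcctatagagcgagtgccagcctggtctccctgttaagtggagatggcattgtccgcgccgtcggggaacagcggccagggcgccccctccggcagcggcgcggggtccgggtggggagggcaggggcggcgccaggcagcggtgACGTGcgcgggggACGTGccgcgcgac
Ldha: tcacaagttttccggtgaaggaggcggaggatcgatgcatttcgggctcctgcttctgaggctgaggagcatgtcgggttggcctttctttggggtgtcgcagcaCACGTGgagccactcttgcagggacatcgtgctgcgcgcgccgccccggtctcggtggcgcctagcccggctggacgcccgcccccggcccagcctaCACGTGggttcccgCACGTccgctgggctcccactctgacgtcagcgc
Tnnt1 held 1 E-box, and 66.2% of 32851 upstream sequences held at least 1. ACGTG occurred 2 times in Slc16a3 and 5 times in Ldha, counting both strands, and some of the Ldha matches overlap in CACGTG. It was present in 16.6% of all upstream sequences of this length. Of the 12 genes highest in the muscle cells over other cells, 10 had a sequence in the table, of which 8 held CANNTG and 2 held ACGTG. These matches are letters in a window and were not tested as sites.

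The 2 sections held 2442196 and 2645045 gene transcripts in 52308 Utx-cKO and 40371 WT cells, and the median kept cell had 48 and 62 transcripts. Each section consisted of 4 separate strips of skin, numbered here from low to high position. Their animal or body site is not given, so strips are not replicates. Levels are counts summed over the muscle cells and scaled to the same total over the 480 genes (CPM), with exact 95% Poisson intervals. All intervals cover counting error only. Of 20 negative control probes, 3 transcripts fell in Utx-cKO members and 1 in WT members, beside 34357 and 67515 gene transcripts.

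The rule found 284 of 37395 cells in the Utx-cKO section (0.759%, 95% Clopper-Pearson interval 0.674 to 0.853) and 344 of 33263 in the WT section (1.03%, 0.928 to 1.15). Along the length of the tissue this came to 10.2 muscle cells per mm in Utx-cKO and 11.6 per mm in WT. In Utx-cKO, strips 1 to 4 held 35, 102, 142 and 5 of them. In WT, strips 1 to 4 held 168, 5, 127 and 44. Both sections thus had strips rich in muscle cells and a strip nearly without them, and the shares of the strips overlapped, from 0.0666% to 1.51% in Utx-cKO and from 0.0984% to 1.74% in WT. Depth also differed between the sections, with a median of 105 transcripts per muscle cell in Utx-cKO and 189 in WT, and the rule asks for a fixed number of transcripts. The log2 ratio of shares was -0.45 (-0.68 to -0.21). It was -0.03 when WT transcripts were thinned to a fraction of 0.774, the ratio of the median depths of all kept cells. That fraction is milder than the depth gap between the muscle cells themselves, which was not matched. Counting on Tnnt1 and Arpp21 without Slc16a3 turned the ratio to 0.60, and leaving out WT strip 1, the strip richest in muscle cells, brought it to 0.03. The order of the 2 sections in muscle cells was therefore not settled by these counts.

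The 3 marker transcripts let in different cells in the 2 sections. In Utx-cKO, 54 cells entered on Tnnt1 alone, 16 on Arpp21 alone, 51 on Slc16a3 alone and 163 on more than 1 marker. In WT, 6 entered on Tnnt1 alone, 9 on Arpp21 alone, 150 on Slc16a3 alone and 179 on more than 1. The summed marker count had a median of 4 in both sections and reached 26 in Utx-cKO and 15 in WT. The cells just inside the limit, with 3 marker transcripts, numbered 101 in Utx-cKO and 134 in WT, and those just outside it, with 2, numbered 222 and 276. Cryab stood at 35482 CPM in Utx-cKO and 51074 CPM in WT cells just inside, and at 30764 and 49272 CPM in those just outside. In Utx-cKO, Itm2a was at 44743 CPM just inside and 32925 CPM just outside, and Vim, a gene of mesenchymal cells, at 8568 and 15434 CPM. Cells on either side of the limit were thus closer in Cryab than in Vim. Only 1 WT cell and 0 of the Utx-cKO cells passed the marker count but had 3 or more keratinocyte transcripts.

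**Figure D1:**
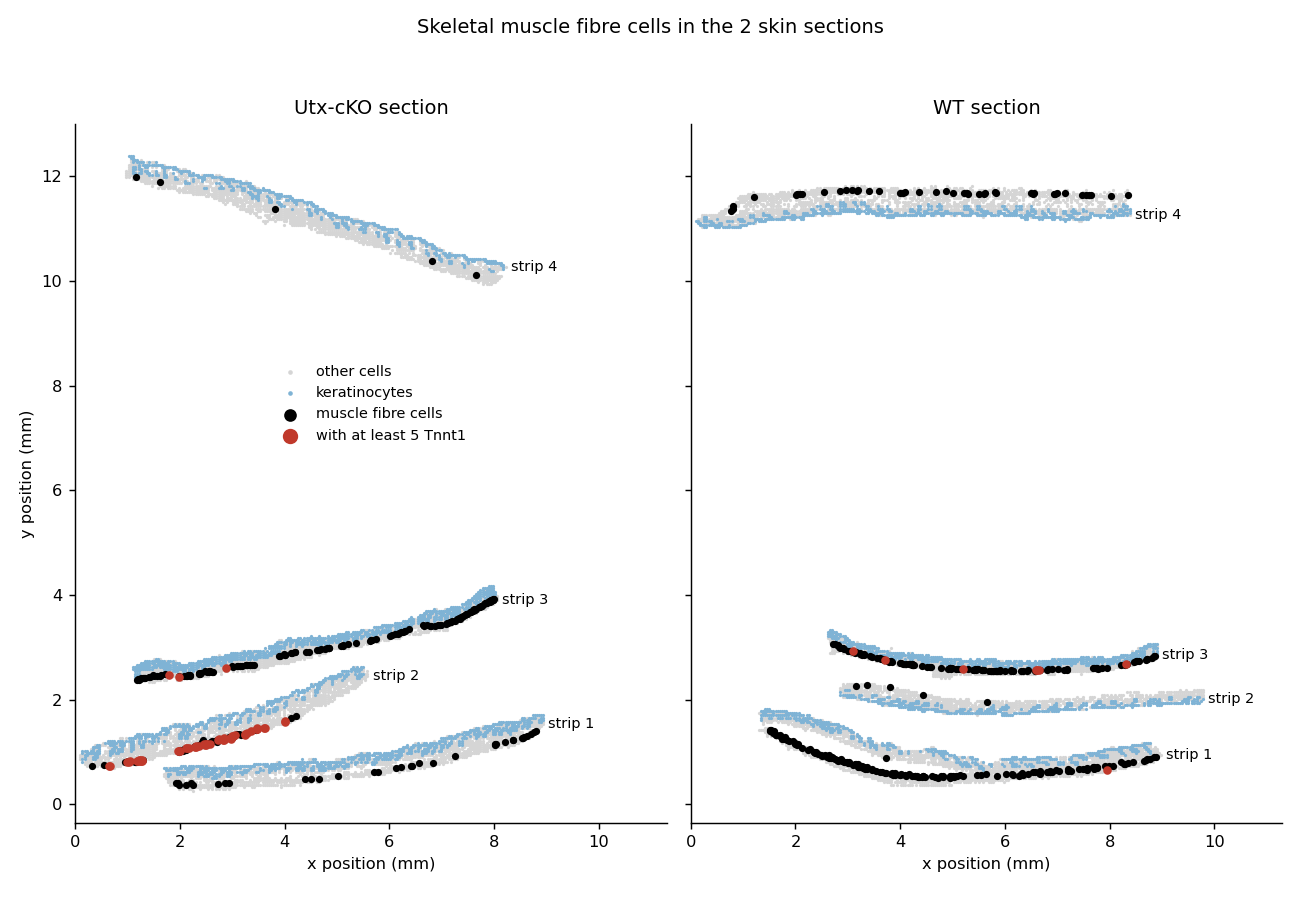
Position of the muscle fibre cells in the Utx-cKO section (left) and the WT section (right), in mm. Black points are muscle fibre cells, red points those with at least 5 Tnnt1 transcripts (54 in Utx-cKO, 51 of them in strip 2, and 8 in WT), blue marks keratinocytes and grey other cells; the muscle cells line the side of each strip away from the keratinocytes.

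The cells lay where the muscle sheet of the skin is known to lie. Depth was put on a scale across each strip from 0 on the keratinocyte side to 100 on the deep side. Their median was 94.3 in Utx-cKO and 86.6 in WT, against 60.8 and 64.8 for other non-keratinocyte cells. Keratinocytes had 33.9 and 30, but the scale was turned by their position, so that contrast is in part set in advance. At 75 or more on this scale lay 283 of 284 Utx-cKO cells and 277 of 344 WT cells. The WT exceptions were mainly in strip 1, where 63.1% lay at 75 or more and the median was 78.5. The muscle cells were a median of 132 µm from the nearest keratinocyte in Utx-cKO and 187 µm in WT. Other non-keratinocyte cells were 32.4 and 41.9 µm away. Muscle cells also sat together: of the 10 nearest cells of a muscle cell, 19.3% in Utx-cKO and 14.1% in WT were muscle cells, against 0.766% and 0.995% around all kept cells.

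Their outlines differed from those of other cells too. Segmented cell area had a median of 165 µm2 in Utx-cKO and 183 µm2 in WT, against 111 and 119 µm2 in other non-keratinocyte cells. Their nuclei were elongated, with a median length over width of 2.43 in Utx-cKO and 2.81 in WT, against 1.76 and 1.80 in other non-keratinocyte cells. A smaller share of their transcripts lay over the nucleus, 33.0% in Utx-cKO and 29.9% in WT, against 47.3% and 44.1%. A segmented muscle cell here is an area around a nucleus, not a whole fibre, and much fibre RNA lay outside any cell. Of all Tnnt1 transcripts, 42.9% in Utx-cKO and 63.1% in WT were inside cells, and for Cryab these shares were 52.2% and 42.9%.

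The label could be checked against few defining genes, because the panel held 1 of 26 listed sarcomere genes, Tnnt1 itself, and 4 of 16 listed fibre markers. The only fibre marker that the rule did not use was Cryab, the small heat-shock protein that protects the contractile apparatus. It stood at 39293 CPM in Utx-cKO and 48212 CPM in WT muscle cells, against 2727 and 4790 CPM in other kept cells, a level 14.4 and 10.1 times as high. Mef2c, a transcription factor of muscle, was at 30707 CPM in Utx-cKO and 29105 CPM in WT, 12.6 and 9.03 times the level in other cells. Itga7, the laminin receptor of muscle fibres, was at 5705 and 6088 CPM, or 7.93 and 6.62 times. Itm2a, a membrane protein found in muscle differentiation, was 12.7 and 10.5 times as high as in other cells. Cryab and Mef2c came from the gene lists. Itga7 and Itm2a were on none of them and were named for being among the highest over other cells. Their height in all members is therefore a description and no check of the label. Contraction genes other than Tnnt1 were not measured. By Cryab and Mef2c the label was met over all members together, as far as the panel reaches. By Itm2a, Itga7 and Vim it was met less well in the 54 Utx-cKO cells that entered on Tnnt1 alone. Those cells had 61180 CPM of Cryab and 28891 CPM of Mef2c. Their Itm2a (15538 CPM) and Itga7 (3156 CPM) were below the level of all Utx-cKO members, though above that of other kept cells. Their Vim, at 22093 CPM, was close to the 23874 CPM of other kept cells.

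Energy genes made up a large share of what these cells held. Tpi1, Ldha and Pkm, which encode the glycolytic enzymes triosephosphate isomerase, lactate dehydrogenase A and pyruvate kinase, gave 27.0% of the panel's transcripts in Utx-cKO muscle cells and 31.3% in WT. Tpi1 was at 101872 CPM in Utx-cKO and 110331 CPM in WT, against 8503 and 10027 CPM in other cells. Ldha was 9.67 and 9.84 times as high, and Pkm 7.84 and 8.73 times. The fourth glycolysis gene outside the rule, Pgam1, whose product is the phosphoglycerate mutase of non-muscle tissues, went the other way, with 1135 CPM in Utx-cKO and 1215 CPM in WT against 2885 and 2660 CPM in other cells.

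Of the 3 genes compared from the list of oxidative metabolism and lipid use, 2 were at least 1.5 times higher than in other cells in both sections. Acsl1, which activates long-chain fatty acids, was at 25002 CPM in Utx-cKO and 21877 CPM in WT, or 5.32 and 3.04 times the level of other cells. Ndufa4l2, a mitochondrial protein induced by low oxygen, was 3.22 and 4.41 times as high. The third, Dbi, which encodes the acyl-CoA binding protein, was 2.12 times as high in Utx-cKO and 1.10 times in WT. Outside that list, Cpt2, of the mitochondrial carnitine shuttle, was 4.53 and 3.81 times as high. Chac1, a glutathione-degrading enzyme of the stress response, was 15.3 and 12.8 times as high. Sod2, the mitochondrial superoxide dismutase, was 6.89 and 5.55 times as high, and the growth factor gene Fgf1 6.76 and 5.73 times. Of 122 genes with at least 100 counts in the members, 41 (33.6%) were at least 1.5 times higher than in other cells in both sections. Another 28 (23%) were at least 1.5 times lower. Because that minimum is taken in the members, genes high there pass it more readily, and these counts are a description only.

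**Figure D2:**
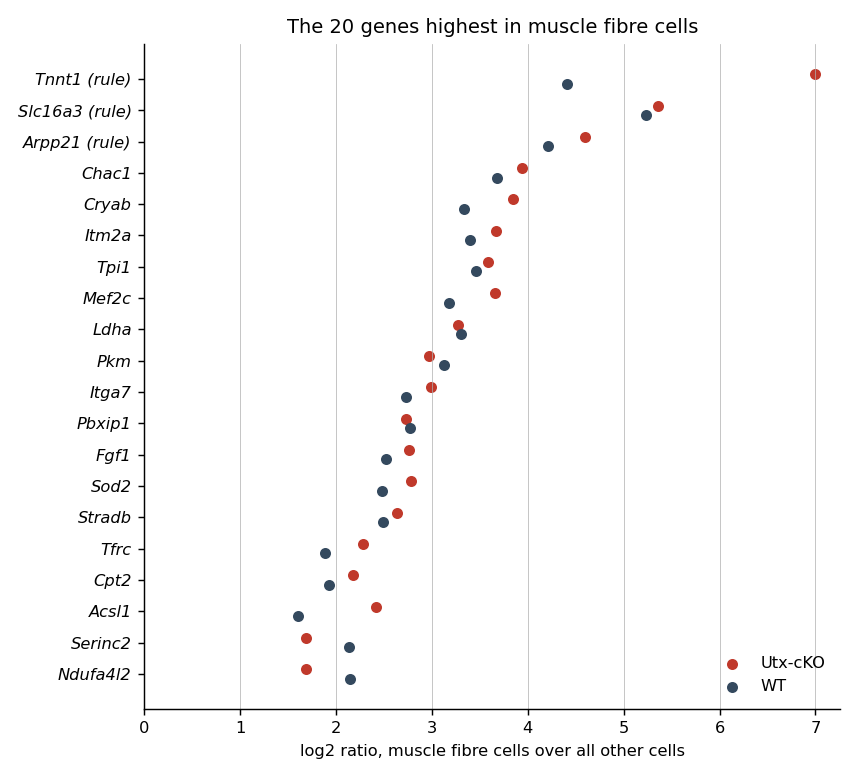
The 20 genes with the highest mean log2 ratio of the level in muscle fibre cells over all other kept cells, in Utx-cKO (red, upper point) and WT (dark, lower point). The genes marked as rule chose the cells. Among the others Chac1, Cryab, Itm2a, Tpi1 and Mef2c lead by this mean, although in WT alone Ldha is above Mef2c.

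Genes of other skin cells were mostly low. The matrix gene Postn was at 1630 CPM in Utx-cKO and 2474 CPM in WT muscle cells, against 13117 and 14616 CPM in other cells. All 7 collagen and matrix genes compared and all 5 fibroblast markers compared were at least 1.5 times lower than in other cells in both sections. Over all genes compared this was 28 of 122 (23%). Both lists hold Lum, Mfap4 and Aspn, so they are not separate counts. Vim, the intermediate filament gene of mesenchymal cells, was at 8295 CPM in Utx-cKO and 11834 CPM in WT, against 23874 and 32874 CPM. In the Utx-cKO cells that entered on Tnnt1 alone Vim was not low, at 22093 CPM. The class I histocompatibility gene H2-K1 had a log2 ratio to other cells of -2.82 in Utx-cKO and -2.46 in WT. Krt1, of suprabasal keratinocytes, was at 0 in the muscle cells of both sections.

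Markers of vessel cells were mixed. Rgs5, a pericyte marker, stood at 4482 CPM in Utx-cKO and 3155 CPM in WT, 3.03 and 2.03 times the level in other cells. Myh11, of smooth muscle, was at 553 CPM in Utx-cKO and 237 CPM in WT, 0.214 and 0.0839 times that level. The 3 pericyte and smooth muscle markers together came to 5996 CPM in Utx-cKO and 3792 CPM in WT muscle cells, against 5885 and 5880 CPM in other cells. The endothelial cadherin gene Cdh5 was at 2125 and 1926 CPM, 1.61 and 1.24 times. Of the 3 blood endothelial markers compared, 0 were at least 1.5 times higher than in other cells in both sections. The summed level of the 4 on the panel was 6112 CPM in Utx-cKO and 4680 CPM in WT muscle cells, against 4631 and 5368 CPM in other cells. Their part in the results below was not tested.

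A wider set was also counted, chosen after values were seen: cells with at least 8 transcripts of Cryab, Mef2c, Itm2a, Itga7 and Stradb together. It held 704 cells in Utx-cKO and 1306 in WT, a log2 ratio of shares of -1.06 (-1.19 to -0.93). This set too asks for a fixed number of transcripts, and Utx-cKO cells were shallower. It was not counted again with WT thinned, so the part of depth in this ratio was not tested. In the wider set were 221 of the 284 Utx-cKO members (77.8%) and 323 of the 344 WT members (93.9%). The shortfall lay in Utx-cKO strip 2, where 54.9% of the members were in the wider set, against 88.6% and 93.7% in Utx-cKO strips 1 and 3.

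That strip also stood apart in Tnnt1. In the strips with at least 30 muscle cells, Tnnt1 was at 498, 87231 and 2451 CPM in Utx-cKO strips 1, 2 and 3, and at 566, 5786 and 1196 CPM in WT strips 1, 3 and 4. Utx-cKO strip 2 was far above every other strip, and the remaining strips of the 2 sections overlapped. Over whole sections Tnnt1 was at 20549 CPM in Utx-cKO (706 transcripts) and 2577 CPM in WT (174 transcripts), a log2 ratio of 3.00. Without Utx-cKO strip 2 the ratio was -0.28, so its direction rested on that strip, and without WT strip 3 it was 4.96. Counting every Tnnt1 transcript in the tissue, inside cells or not, gave 367 per mm in Utx-cKO strip 2. The next highest were 80 per mm in WT strip 3 and 36.1 per mm in Utx-cKO strip 3.

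Cells with at least 5 Tnnt1 transcripts, a limit chosen after values were seen, numbered 54 in Utx-cKO, of which 51 lay in strip 2 and 3 in strip 3. In WT they numbered 8, of which 7 lay in strip 3 and 1 in strip 1. Of the Tnnt1 transcripts of Utx-cKO strip 2, 96.7% lay within 60 µm of a muscle cell, and 35.7% were inside any cell. The rule counts Tnnt1, so this nearness follows in part from the choice of cells. For Cryab, which the rule does not use, 73.1% of the transcripts of that strip lay within 60 µm of a muscle cell.

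Slc16a3 ran opposite. It was at 21430, 1882 and 17781 CPM in Utx-cKO strips 1, 2 and 3, and at 19678, 9710 and 15999 CPM in WT strips 1, 3 and 4. The strip highest in Tnnt1 in each section was thus the lowest in Slc16a3 among these strips. Since the 2 genes share a limit in the rule, cells without one must carry the others, and this opposition within chosen cells is a description only. Counting all transcripts of the tissue, Slc16a3 amounted to 73.9, 34.8 and 155 transcripts per mm in Utx-cKO strips 1, 2 and 3, and to 287, 123 and 90.4 per mm in WT strips 1, 3 and 4. By that count strip 2 was again the lowest of the 3 in Utx-cKO, but in WT strip 4 was lower than the Tnnt1-richer strip 3. Arpp21 was at 8722, 14382 and 7932 CPM in Utx-cKO strips 1, 2 and 3 and 2463, 8719 and 4785 CPM in WT strips 1, 3 and 4, so it varied less than Slc16a3 in Utx-cKO but more in WT.

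**Figure D3:**
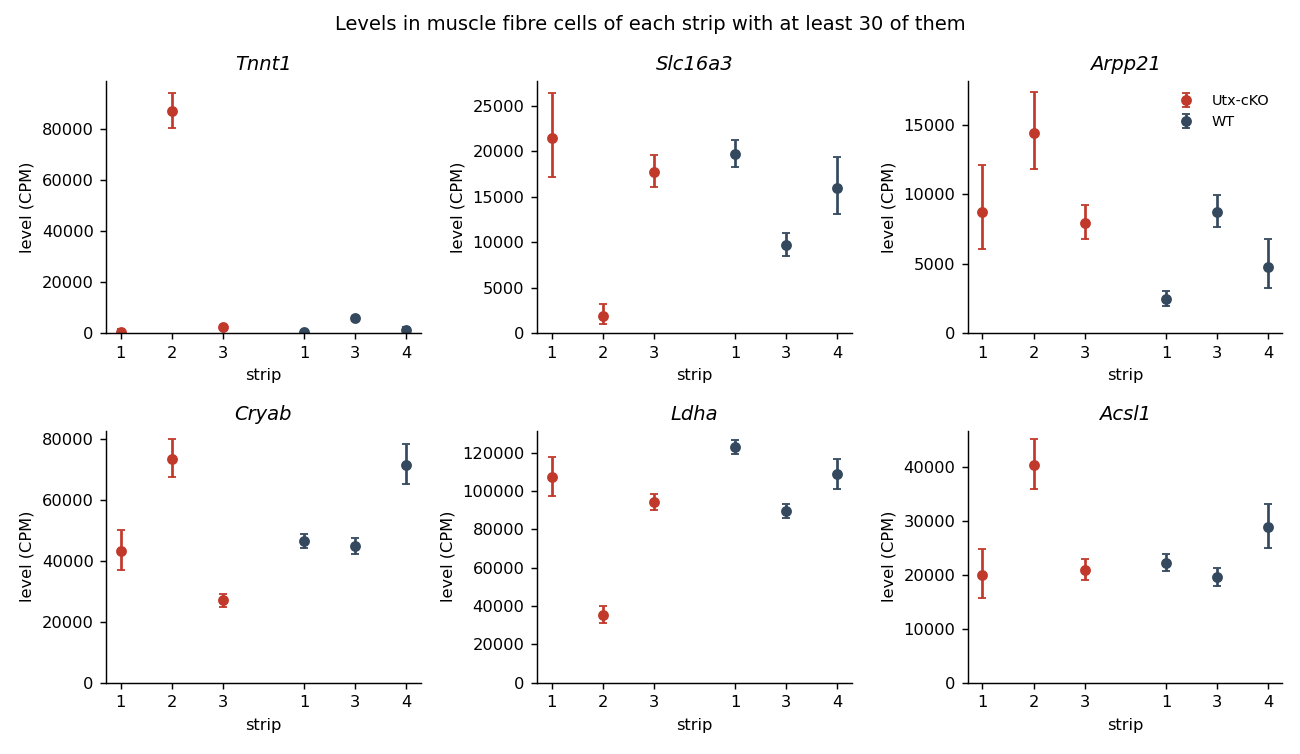
Levels of 6 genes in CPM in the muscle fibre cells of each strip with at least 30 of them, Utx-cKO strips 1, 2 and 3 (red, left) and WT strips 1, 3 and 4 (dark, right), with 95% Poisson intervals. Tnnt1 reaches 87231 CPM in Utx-cKO strip 2, where Slc16a3 and Ldha are at their lowest and Acsl1 at its highest.

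Glycolytic genes outside the rule were low in the muscle cells of Utx-cKO strip 2. They also went with the marker on which a cell entered. Over the Utx-cKO section Ldha was at 27191 CPM in cells that entered on Tnnt1 alone and 104804 CPM in those on Slc16a3 alone. The part of the rule in the values of strip 2 was not tested. Ldha was at 107401, 35349 and 94296 CPM in Utx-cKO strips 1, 2 and 3, and at 122993, 89371 and 108702 CPM in WT strips 1, 3 and 4. Tpi1 was at 107650, 40860 and 121034 CPM in Utx-cKO strips 1, 2 and 3. For both genes strip 2 lay below every other strip of either section. To keep Tnnt1 from diluting the rest, strip 2 was set against strips 1 and 3 with the genes of the rule left out of the totals. The log2 ratio was -1.43 (-1.60 to -1.26) for Tpi1, -1.33 (-1.52 to -1.15) for Ldha and -0.83 (-0.99 to -0.67) for Pkm. Other non-keratinocyte cells of the same strips had -0.42, -0.01 and -0.04 for these genes.

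Some genes of fatty acid use and peroxide removal, named after their values were seen, were high there. The log2 ratio of strip 2 over strips 1 and 3 was 1.07 (0.87 to 1.28) for Acsl1, 0.95 (0.39 to 1.48) for Cpt2 and 0.90 (0.58 to 1.22) for Cat, the peroxisomal catalase. In other non-keratinocyte cells Acsl1 was also higher in strip 2, at 0.82, whereas Cpt2 was at 0.19 and Cat at -0.14. Dbi did not share this, with 5233, 4839 and 4902 CPM in the muscle cells of Utx-cKO strips 1, 2 and 3, and Ndufa4l2 was lower in strip 2, at -0.78 (-1.35 to -0.25). Cryab, a gene known to be richer in slow than in fast fibres, was higher by a log2 ratio of 1.44 (1.27 to 1.59), against -0.13 in other cells. Counting all transcripts of the tissue, Cryab was not higher in strip 2, with 587 per mm against 648 and 708 per mm in strips 1 and 3. In the muscle cells Mef2c (-0.08) and Itga7 (0.26) had log2 ratios near 0. Of 56 genes compared, 11 (19.6%) were at least 1.5 times higher in strip 2 and 12 (21.4%) at least 1.5 times lower.

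Not every gene that differed belonged to metabolism. Itm2a was lower in strip 2 by a log2 ratio of -1.77 (-2.09 to -1.47), Calcrl, a receptor subunit for calcitonin gene-related peptide and adrenomedullin, by -1.81 (-2.98 to -0.84), and Igfbp5, which encodes a binding protein for insulin-like growth factors, by -1.40 (-1.65 to -1.17). Higher were Rgs5 (1.95, 1.47 to 2.42), Vim (1.83, 1.49 to 2.18) and Enah, an actin regulator (1.53, 1.05 to 2.01). Markers of vessel cells moved with strip 2. Rgs5 was at 1495, 10349 and 3164 CPM in the muscle cells of Utx-cKO strips 1, 2 and 3, and Cdh5 at 748, 4436 and 1649 CPM. The Utx-cKO cells that entered on Tnnt1 alone had 12139 CPM of Rgs5 and 6069 CPM of Cdh5, against 1588 and 794 CPM in those that entered on Slc16a3 alone.

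The cells of strip 2 were also shallower and rounder in the nucleus, with a median of 69.5 transcripts and a nuclear length over width of 1.87, against 136 and 2.90 in strips 1 and 3. The part of the rule's markers, vessel cells, depth and shape in the strip's values was not tested. Cells of the wider muscle set, which uses none of the rule's marker genes, gave log2 ratios of -0.83 for Tpi1, -0.84 for Ldha, 1.05 for Acsl1 and 1.72 for Rgs5 between the same strips. That set shares cells with the members, which were not left out, so it is no separate check. Members were 56 of its 101 cells in strip 2, 31 of 200 in strip 1 and 133 of 363 in strip 3.

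The 8 Tnnt1-rich cells of WT could be set against the 278 WT muscle cells without a Tnnt1 transcript. Ldha was lower in them by a log2 ratio of -0.52 (-0.80 to -0.26), Pkm by -0.49 (-0.80 to -0.21) and Tpi1 by -0.36 (-0.62 to -0.10). Acsl1 had -0.39 (-1.05 to 0.21) and Cryab -0.13 (-0.51 to 0.24), and both intervals lie below the ratios of these genes in Utx-cKO strip 2. Those ratios come from an unlike contrast, of all muscle cells of that strip over those of strips 1 and 3. Cells without Tnnt1 can enter only through Slc16a3 or Arpp21, and 7 of the 8 Tnnt1-rich cells lay in WT strip 3, where Ldha was at 89371 CPM against 122993 CPM in WT strip 1. The rule and the strip thus go with the WT contrast, and it is a description only.

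**Figure D4:**
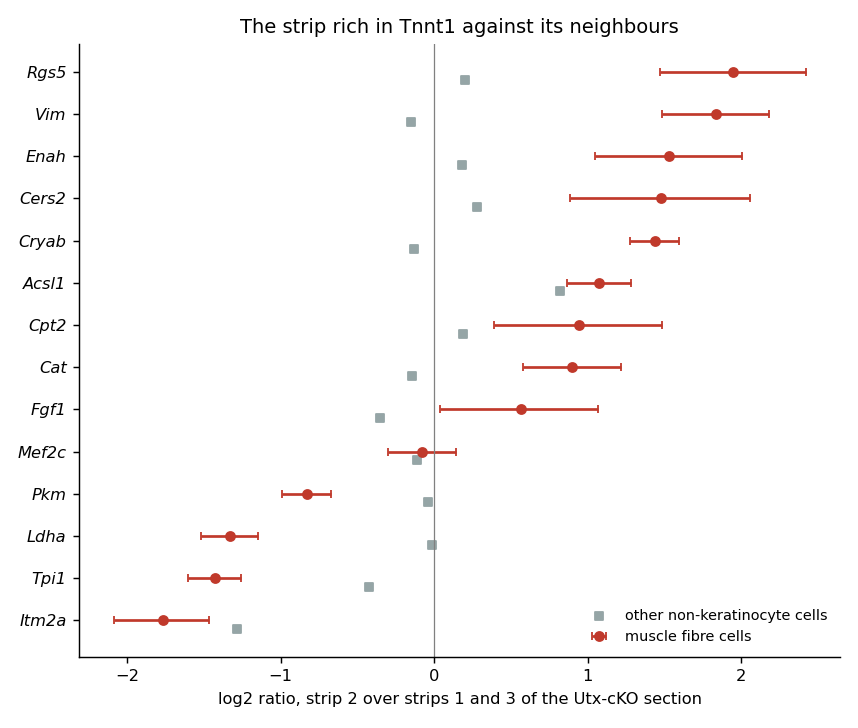
Log2 ratio of Utx-cKO strip 2 over Utx-cKO strips 1 and 3 in muscle fibre cells (red circles, 95% counting intervals) and in other non-keratinocyte cells of the same strips (grey squares), with the genes of the rule left out of the totals. Tpi1, Ldha and Pkm lie below 0 and Cryab, Acsl1, Cpt2 and Cat above it in muscle cells; Rgs5 and Vim lie highest.

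Between genotypes few genes passed the size rule in the muscle cells. Of 122 genes compared, 10 (8.2%) were at least 1.5 times higher in Utx-cKO than in WT and 5 (4.1%) at least 1.5 times lower, and the median log2 ratio was -0.01. These counts depend on the scale: by mean counts per cell, which keeps the lower depth of Utx-cKO, 1 gene was higher and 78 were lower, and Rassf8, Tfrc, Igfbp5, Lpcat3 and Calcrl turned to just below 0. In the wider muscle set 37 genes were lower. Of the 10, Tnnt1 and Arpp21 belong to the rule. The other 8 had log2 ratios from 0.60 to 0.88 and the 5 lower ones from -0.71 to -0.60. With 1 section a group and strips that overlap, a difference between genotypes cannot be told apart from a difference between pieces of skin.

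Igfbp5 had the most counts of the higher genes and stood at 50965 CPM in Utx-cKO and 32719 CPM in WT (log2 ratio 0.64, 0.55 to 0.73). By strip it was at 21680, 20833 and 66578 CPM in Utx-cKO strips 1, 2 and 3 and at 35505, 33529 and 15550 CPM in WT strips 1, 3 and 4. Utx-cKO strip 3 alone was above the WT strips, and without it the ratio was -0.60. Tfrc, the transferrin receptor that brings iron into cells, was at 5676 CPM in Utx-cKO and 3584 CPM in WT (0.66, 0.38 to 0.94), with 3240, 5108 and 6417 CPM in Utx-cKO strips 1, 2 and 3 and 3369, 4241 and 2392 CPM in WT strips 1, 3 and 4. Calcrl was at 4075 and 2696 CPM (0.60, 0.27 to 0.92).

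Several of the others are known from cells that lie between fibres, and the part of such cells in their ratios was not tested. Aqp1, the water channel of capillary endothelium, was at 2649 CPM in Utx-cKO and 1437 CPM in WT (0.88, 0.45 to 1.31), but at 0, 6183 and 2005 CPM in Utx-cKO strips 1, 2 and 3, and its ratio without strip 2 was 0.22. Thy1, of T cells, nerve and some fibroblasts, was at 2008 and 1170 CPM (0.78, 0.29 to 1.26), and at 0.31 without strip 2. Cald1, a caldesmon gene of smooth muscle and other non-skeletal cells, was at 2212 and 1244 CPM (0.83, 0.36 to 1.30). In the wider muscle set Aqp1, Thy1 and Cald1 were lower in Utx-cKO, at -0.32, -0.31 and -0.22. Lpcat3, which remodels phospholipids, had 0.60 (0.20 to 0.99), and 0.35 without strip 2.

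Among the lower genes, C1qa, a complement gene of macrophages, was at 990 CPM in Utx-cKO and 1615 CPM in WT (-0.71, -1.31 to -0.14). It was at 498, 3495 and 178 CPM in Utx-cKO strips 1, 2 and 3, so the section value mixed very unlike strips, and the ratio was -2.44 without strip 2 and 0.64 without strip 3. Trp63, which has isoforms in muscle although it is best known from basal keratinocytes, was at 2416 and 3910 CPM (-0.69, -1.07 to -0.33). Gpx1, the cytosolic glutathione peroxidase, was at 2736 and 4295 CPM (-0.65, -1.002 to -0.31), and Rcor1, a co-repressor of chromatin complexes, at 902 and 1422 CPM (-0.66, -1.29 to -0.06). Postn was lower by -0.60 (-1.07 to -0.16), and by -0.30 without strip 2.

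Few genes kept the strips of the 2 sections apart. In 2 of the 122 genes (1.64%) all 3 Utx-cKO strips were above all 3 WT strips, and in 1 gene (0.82%) all were below. Rassf8, which encodes a Ras-association domain protein, was at 2492, 1882 and 2228 CPM in Utx-cKO strips 1, 2 and 3 and at 1019, 1744 and 1495 CPM in WT strips 1, 3 and 4. Dbi was at 5233, 4839 and 4902 CPM in the Utx-cKO strips and 3313, 3408 and 2990 CPM in the WT strips, a log2 ratio of 0.56 (0.27 to 0.86) that stayed below the 1.5-fold size. Trp63 was at 2492, 1344 and 2763 CPM in the Utx-cKO strips and 3171, 4796 and 4336 CPM in the WT strips.

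**Figure D5:**
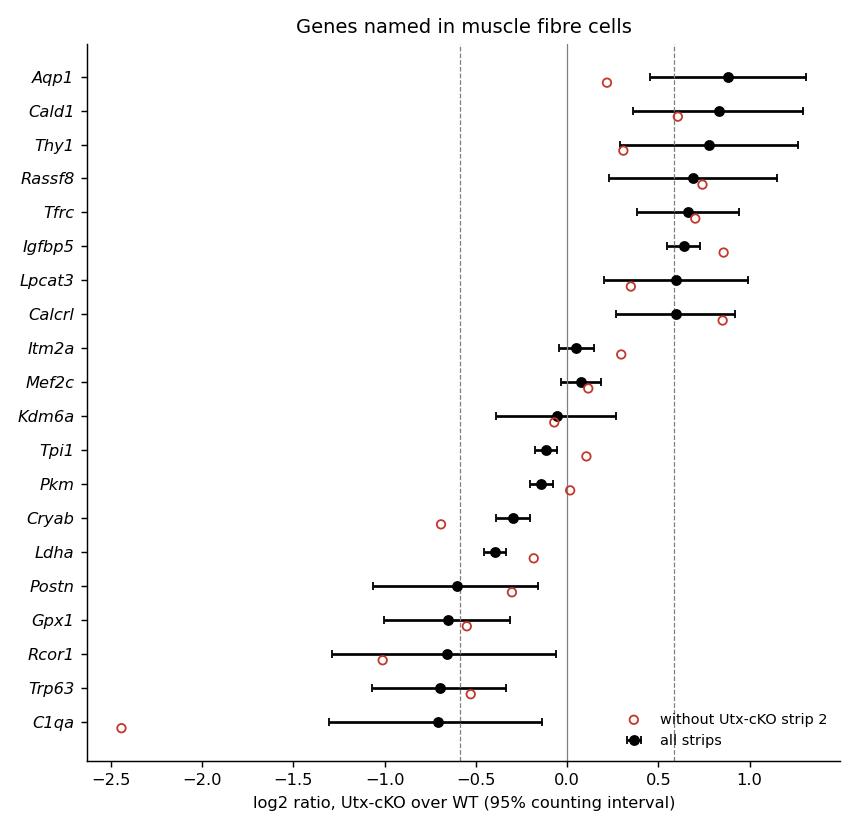
Log2 ratio of Utx-cKO over WT in muscle fibre cells (black points, 95% counting intervals) and the same without Utx-cKO strip 2 (open red circles); dashed lines mark 1.5-fold. Among the genes plotted, which leave out Tnnt1, Aqp1 (0.88) and C1qa (-0.71) move most when the strip is left out, to 0.22 and -2.44.

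The genes that define the energy supply of these cells did not pass the size in either direction. Ldha had a log2 ratio of -0.39 (-0.46 to -0.33), and -0.18 without Utx-cKO strip 2. Pkm had -0.14 and Tpi1 -0.12. The 4 glycolysis genes outside the rule had a median of -0.13, and the 3 genes of oxidative metabolism and lipid use that were compared a median of 0.19, with 0 past 1.5-fold in both lists. Cryab had -0.30 (-0.39 to -0.20), and -0.69 without strip 2. Mef2c had 0.08 (-0.03 to 0.19), Itm2a 0.05 (-0.05 to 0.15), Itga7 -0.09 (-0.35 to 0.16) and Chac1 -0.23 (-0.47 to 0.00). Of the 7 collagen and matrix genes compared, Postn alone passed the size.

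Kdm6a, the gene targeted in keratin-14 tissues, was at 3376 CPM in Utx-cKO muscle cells (116 transcripts) and 3510 CPM in WT muscle cells (237 transcripts), a log2 ratio of -0.06 (-0.39 to 0.27). In keratinocytes, chosen by at least 3 transcripts of Krt5, Krt15 and Col17a1, it was at 2567 CPM in Utx-cKO and 2942 CPM in WT, a log2 ratio of -0.20 (-0.28 to -0.12). Other non-keratinocyte cells had about the same, -0.23 (-0.30 to -0.16), so the lower level was not seen in keratinocytes alone. A targeted exon need not lie under the probes, and their binding sites are not given in the labels used, so this checks the labels little. Kdm6b, the related demethylase gene, had 0.28 (-0.07 to 0.64) in muscle cells and 0.32 (0.23 to 0.41) in keratinocytes. Kmt2a, a methyltransferase gene, had -0.28 (-0.72 to 0.14) in muscle cells. The 7 chromatin genes compared had a median of 0.28, and 0 of them passed 1.5-fold.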

How the data were processed

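Each deposited transcript table lists decoded transcripts with a quality score, position and cell, and each deposited cell table gives counts per segmented cell, per the file headers. The decoding and segmentation software is not named in the labels or headers. Transcripts of genes scoring at least 20 were counted per cell, and these counts equal the deposited cell tables in all 52308 Utx-cKO and 40371 WT cells. Cells with at least 20 transcripts were kept; no doublet caller was run.

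Counts summed over the members were scaled to CPM and compared as Utx-cKO over WT on the log2 scale for genes with at least 100 counts over both sections, with 1.5-fold as the size rule. The 95% intervals are exact and cover counting: Poisson for a level, conditional binomial for a ratio of levels or shares, Clopper-Pearson for a share. The ratio step was tested on simulated data. Strips are connected areas of at least 1000 cells linked within 60 µm.

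Genes named are up to 10 past 1.5-fold each way whose interval leaves out 0, the 12 with most counts, the 12 highest over other cells, the rule's genes, Kdm6a and Kdm6b, and members of the gene lists with the largest ratios or levels. Genes named for Utx-cKO strip 2, Dbi and the vessel genes were chosen after their values were seen. The members and lists were chosen with earlier results of these data known. Python 3.11.15 with numpy 2.4.6, pandas 2.3.3 and scipy 1.17.1 was used.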

Additional observations from a re-analysis of the deposited data

How the results depend on the processing

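With 1 section a group no alternative carries a test, and 29 were run. No paired analysis was possible because each group has 1 section. The causes of the shifts were not tested, except that a gene minimum or thinning changes how many genes can pass. Genes at least 1.5 times higher in Utx-cKO members numbered 10, and 5 with at least 5 marker transcripts, 4 without Slc16a3 in the rule, 4 over the nucleus alone, 19 with a gene minimum of 50, 156 with none, 1 by mean counts per cell, 6 without the 10 most abundant genes, 2 after thinning to 20 transcripts and 3 on the right side alone. Genes lower numbered 5, and 3 with scores of at least 30, 3 with at least 5 marker transcripts, 13 without Slc16a3, 8 with at least 1 Tnnt1 or Arpp21 transcript, 1 over the nucleus alone, 11 with a gene minimum of 50, 82 with none, 78 by mean counts per cell, 3 after thinning and 10 on the left side. The 2 alternatives chosen after seeing the data gave 37 lower in the wider muscle set and 2 with WT thinned by the ratio of the median depths of all kept cells. The wider set left out its own genes and applied the gene minimum anew, so its count is not out of the same genes. The log2 ratio of the member share was -0.45, and 0.60 without Slc16a3, 0.10 with at least 1 Tnnt1 or Arpp21 transcript, -0.19 per mm, -1.06 in the wider muscle set and -0.0297 with WT thinned. Leaving out each strip gave 6 to 24 genes higher, 3 to 12 lower and a share ratio from -0.80 (without Utx-cKO strip 2) to 0.0273 (without WT strip 1). By mean counts per cell, which keeps the lower depth of Utx-cKO, Rassf8 turned to -0.0059, Tfrc to -0.035, Igfbp5 to -0.059, Lpcat3 to -0.10 and Calcrl to -0.10. Tnnt1 turned to -2.47 on the right side alone and, leaving out a strip, ranged from -0.28 (without Utx-cKO strip 2) to 4.96 (without WT strip 3). Igfbp5 turned to -0.60 and C1qa to 0.64 without Utx-cKO strip 3, against 0.86 and -2.44 without Utx-cKO strip 2. In the wider muscle set Aqp1 turned to -0.32, Cald1 to -0.22 and Thy1 to -0.31.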
